A study of Mus musculus with 32 samples.

Results

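Fc receptors are the proteins through which macrophages recognise the constant (Fc) part of antibodies. The 6 genes described here encode the activating IgG receptors *Fcgr1*, *Fcgr3* and *Fcgr4*, the inhibitory IgG receptor *Fcgr2b*, the signalling chain *Fcer1g* and the neonatal Fc receptor *Fcgrt*. They were found by their Ensembl identifiers among the 54281 gene identifiers of the deposited count table, and all 6 belonged to the 15257 genes that passed the filter on low counts. The lowest count of any of the 6 in any library was 215, so none passed through a single group alone. The study used bone marrow-derived macrophages (BMDMs), which are grown from mouse bone marrow in culture, to ask what follows when *Trex1*, the gene of a DNase that degrades cytosolic DNA, is deleted. All mice carried R26 CreERT2, a Cre recombinase expressed broadly from the Rosa26 locus and active only in the presence of 4-hydroxytamoxifen (4-OHT). *Trex1* FL/FL cells have loxP sites in both alleles, whereas *Trex1* WT/FL control cells have them in 1 allele and keep a wild type allele. Cells of both genotypes either received 4-OHT (2 µg/ml during 22 h) or stayed untreated, and RNA was sequenced on days 1, 2, 3 and 4 after exposure. Each of the 16 combinations had 2 libraries, 32 in all, and the labels name no animal, age, batch or replicate number, so that p-values measure only the spread between these libraries, which may be technical.

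IgG that coats a particle clusters activating Fc receptors on the cell surface. The activating receptors assemble with the FcRγ chain, the product of *Fcer1g*, whose ITAM motif recruits the kinase Syk and starts phagocytosis, the oxidative burst and cytokine release. FcγRIIB, the product of *Fcgr2b*, carries an ITIM motif in its own tail, recruits the phosphatase SHIP1 (*Inpp5d*) and dampens these signals. The ratio of activating to inhibitory receptors therefore sets the threshold at which a macrophage responds to immune complexes. FcγRI (*Fcgr1*) binds monomeric IgG with high affinity, and FcγRIII (*Fcgr3*) and FcγRIV (*Fcgr4*) bind complexed IgG. FcRn (*Fcgrt*) pairs with β2-microglobulin, acts inside endosomes and protects IgG and albumin from breakdown. *Fcgr1* and *Fcgr4* are known as interferon-inducible genes.

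*Fcgr2b*, *Fcgr4*, *Fcgr3* and *Fcer1g* lie in a stretch of 276 kb on mouse chromosome 1 (GRCm39). *Fcgr2b* (ENSMUSG00000026656) occupies chr1:170786186-170804177 (minus strand), *Fcgr4* (ENSMUSG00000059089) chr1:170846466-170857330 (plus strand), *Fcgr3* (ENSMUSG00000059498) chr1:170878738-170893549 (minus strand) and *Fcer1g* (ENSMUSG00000058715) chr1:171057141-171062219 (minus strand). *Fcgr1* (ENSMUSG00000015947) lies apart at chr3:96190225-96201338 and *Fcgrt* (ENSMUSG00000003420) at chr7:44742412-44756819, both on the minus strand. *Fcgr3* and *Fcgr2b* share sequence: 7.12% of the 31-base words in *Fcgr3* transcripts also occur in *Fcgr2b*, and 4.06% of those in *Fcgr2b* occur in *Fcgr3*, so that a share of their reads could be assigned to either gene. For *Fcgr1* and *Fcer1g* 0% of such words occurred in another gene, for *Fcgr4* 1.25% and for *Fcgrt* 1.02%.

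The bases just upstream of the transcription start are shown for *Fcgr1* and *Fcgr4*, the members that differed most between the genotypes, and for *Fcgr2b*, the inhibitory receptor. Each run reads 5′ to 3′ on the gene's strand and ends at the base before the start of the gene's canonical GENCODE transcript. The motifs searched on both strands were TTCNNNGAA (GAS, an element of interferon-γ-inducible promoters) and the letters of the ISRE, an element of promoters that respond to type I interferon, GAAA and GAAA again after any 2 bases. Capitals mark their matches. TTCNNNGAA is its own reverse complement, so that a match counts on both strands.
Fcgr1, chr3:96201339-96201588, minus strand: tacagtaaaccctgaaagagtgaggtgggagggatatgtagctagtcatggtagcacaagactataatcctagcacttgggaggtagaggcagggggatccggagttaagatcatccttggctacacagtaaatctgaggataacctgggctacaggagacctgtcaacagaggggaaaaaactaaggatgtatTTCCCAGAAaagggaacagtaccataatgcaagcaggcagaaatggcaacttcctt
Fcgr4, chr1:170846216-170846465, plus strand: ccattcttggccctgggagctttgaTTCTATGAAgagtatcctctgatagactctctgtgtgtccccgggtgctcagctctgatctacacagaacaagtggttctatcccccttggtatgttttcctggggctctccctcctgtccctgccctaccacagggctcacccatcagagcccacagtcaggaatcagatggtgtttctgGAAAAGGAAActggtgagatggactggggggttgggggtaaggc
Fcgr2b, chr1:170803697-170803946, minus strand: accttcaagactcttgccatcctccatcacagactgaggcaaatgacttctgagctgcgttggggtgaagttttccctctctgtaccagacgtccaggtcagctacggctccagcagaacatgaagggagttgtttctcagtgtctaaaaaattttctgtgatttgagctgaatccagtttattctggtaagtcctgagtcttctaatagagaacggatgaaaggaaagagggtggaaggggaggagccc

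*Fcgr1* held a GAS match from base -56 to -48 relative to the start. *Fcgr4* held a GAS match from base -225 to -217 and an ISRE match from base -44 to -35. In windows of 250 bases before to 50 after the start, *Fcgr2b*, *Fcgr3*, *Fcer1g* and *Fcgrt* held 0 matches. Of 21770 protein-coding promoters of the same length, 8.81% held a GAS match, 3.84% an ISRE match and 12.1% at least either. A match describes letters and was not tested as a binding site.

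The deletion and the cell type were checked first. Library totals ranged from 35120505 to 63760884 estimated counts (median 44841991). *Trex1* was at 0 counts in both libraries of 4-OHT-treated *Trex1* FL/FL cells on days 1, 3 and 4, and at 14 and 9 counts on day 2. The other 24 libraries held 758 to 6553 *Trex1* counts, with lower levels in 4-OHT-treated than in untreated *Trex1* WT/FL cells throughout. The 8 macrophage markers other than *Fcgr1* summed to 15398 to 48531 CPM (a gene's counts relative to the library total, scaled with TMM factors, the unit of all levels below). After 4-OHT this sum was lower in *Trex1* FL/FL than in WT/FL cells, without overlap, on day 2 (26022 to 27979 against 31876 to 33976), day 3 (38153 to 38575 against 45527 to 47933) and day 4 (28690 to 30653 against 31139 to 31942), the days on which *Fcgrt* was lower, and its part in the results was not tested. The 5 B cell markers summed to 1.31 to 6.58 CPM, of which *Cd79b* was the only one to exceed 1 CPM. The neutrophil markers *Ly6g*, *Elane* and *Camp* and all 7 mast cell and basophil markers stayed below 1 CPM in each library, with *Fcer1a* and *Mcpt8* at 0. The summed neutrophil list ranged from 18.5 to 24.7 CPM on day 1. On days 2 to 4 it ranged from 46.4 to 242 CPM in 4-OHT-treated *Trex1* FL/FL and from 44.2 to 191 CPM in WT/FL cells, of which *Csf3r* made up most, and its part in the results was not tested. In bulk RNA, fewer cells of a type and less RNA per cell cannot be told apart.

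After 4-OHT, *Trex1* FL/FL BMDMs had more *Fcgr1* and *Fcgr4* RNA than *Trex1* WT/FL BMDMs from day 2 on, by 2.42-fold to 4.81-fold for *Fcgr1* and to a like extent for *Fcgr4*. *Fcgrt* was lower on the same days, at 52.6% to 70.1% of the control level. *Fcer1g* was moderately higher on days 3 and 4 and *Fcgr3* lower on day 3. *Fcgr2b* passed the test on no day. The question of this comparison is which Fc receptor transcripts change as *Trex1* is lost.

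**Figure D1:**
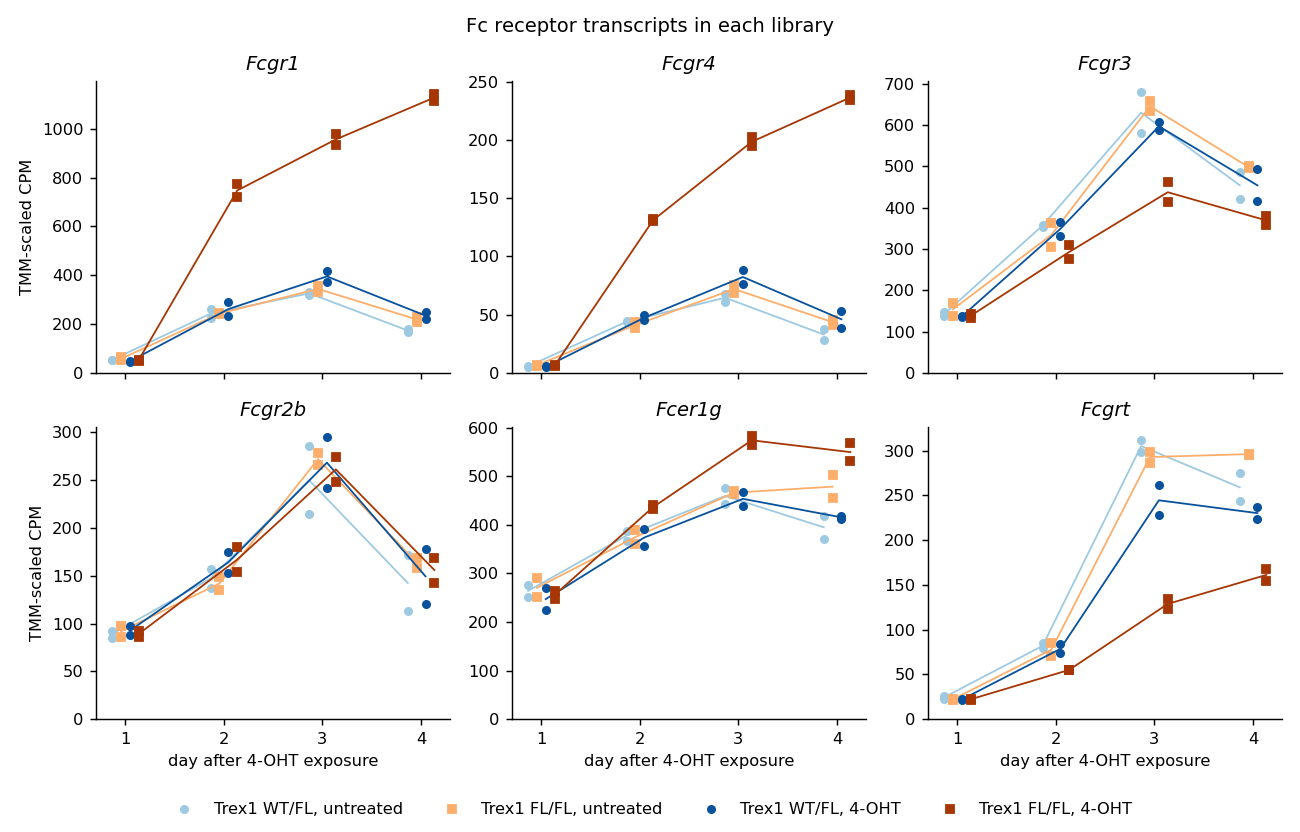
TMM-scaled CPM (linear axis from 0) of the 6 Fc receptor genes by day after 4-OHT exposure, with a point for each library, lines through group means and colours for genotype and treatment. From day 2 the *Fcgr1* and *Fcgr4* libraries of 4-OHT-treated *Trex1* FL/FL cells lie above those of the other arms, and those of *Fcgrt* lie below.

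Members were tested with the quasi-likelihood method of edgeR, with p-values adjusted after Benjamini-Hochberg over all 15257 genes, which called a member at an adjusted p below 0.01. On day 1 edgeR called 0 of 6 members between the 4-OHT-treated genotypes, beside 0.0197% of all genes, with 0 members at an unadjusted p below 0.05 and 0 called by DESeq2. On day 2 it called 2 members higher and 1 lower, beside 5.69% of all genes called higher and 2.48% lower. On day 3 it called 3 higher and 2 lower, beside 6.69% and 5.42% of all genes. On day 4 it called 3 higher and 1 lower, beside 9.84% and 11.7% of all genes. With the study's additional minimum of an absolute log2 fold change above 1.5, 1 member (*Fcgr1*) remained on day 2, 0 on day 3, and *Fcgr1* and *Fcgr4* on day 4, beside 0.583%, 0.872% and 2.98% of all genes. Of all genes called on days 2, 3 and 4, 69.7%, 55.2% and 45.7% were higher with TMM factors, and 42.5%, 42.1% and 27.8% were higher when libraries were scaled by their totals alone, which moved the median log2 fold change of all genes by -0.082, -0.045 and -0.096. No called member changed direction under that scaling, whereas the uncalled *Fcgr2b* moved from 0.02 to -0.06 on day 2 and from 0.06 to -0.03 on day 4.

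*Fcgr1*, the high-affinity IgG receptor and a macrophage marker, was similar in all arms on day 1, at 43.7 to 64.2 CPM over 8 libraries. On day 2 it stood at 720 and 775 CPM in *Trex1* FL/FL cells after 4-OHT and at 290 and 232 CPM in 4-OHT-treated *Trex1* WT/FL cells. On day 3 the values were 932 and 981 CPM against 372 and 418 CPM, and on day 4 they were 1115 and 1141 CPM against 222 and 248 CPM. The genotypes did not overlap on these 3 days, and each *Trex1* FL/FL value was also above each of the untreated libraries. The log2 fold changes were 1.52 (SE 0.111, adjusted p = 4.75e-09) on day 2, 1.28 (SE 0.110, adjusted p = 4.26e-08) on day 3 and 2.27 (SE 0.113, adjusted p = 1.82e-12) on day 4. On day 1 it was 0.15 with a 95% interval from -0.09 to 0.39.

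*Fcgr4*, which encodes an activating receptor for complexed IgG, had the lowest read counts of the members on day 1, with 4.98 to 7.04 CPM (215 to 403 counts). In 4-OHT-treated *Trex1* FL/FL cells it reached 132 and 130 CPM on day 2, 202 and 194 CPM on day 3 and 239 and 234 CPM on day 4. In 4-OHT-treated *Trex1* WT/FL cells it stood at 49.4 and 45.4 CPM, 76.1 and 88.5 CPM, and 38.7 and 53.3 CPM on these days. Again the genotypes did not overlap from day 2 on. The log2 fold changes were 1.47 (adjusted p = 1.1e-07), 1.27 (adjusted p = 5.16e-07) and 2.36 (adjusted p = 2.57e-11), close to those of *Fcgr1* on each day. Over the 16 group means, the log2 levels of *Fcgr1* and *Fcgr4* correlated with a Pearson's r of 0.995, a description over groups that share days and arms.

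*Fcgr3*, the third activating receptor, had its only call in the other direction. On day 3 it stood at 413 and 462 CPM in *Trex1* FL/FL cells after 4-OHT and at 587 and 607 CPM in 4-OHT-treated *Trex1* WT/FL cells. On day 4 the values were 359 and 379 CPM against 416 and 493 CPM, and on day 2 they were 276 and 309 CPM against 332 and 365 CPM. The *Trex1* FL/FL libraries were the lower ones on each of these days without overlap, but the difference passed the test only on day 3, at a log2 fold change of -0.45 (SE 0.102, adjusted p = 0.00305). It was -0.25 (adjusted p = 0.13) on day 2 and -0.30 (adjusted p = 0.031) on day 4, where scaling by library totals gave a call (-0.39, adjusted p = 0.00376). The call on day 3 was lost without any 1 of 3 of its 4 libraries (both WT/FL libraries and the first FL/FL library, adjusted p = 0.0188 to 0.0639), with the log2 fold change between -0.53 and -0.37 in all 4 such fits.

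*Fcgr2b*, the only inhibitory IgG receptor of the mouse, showed no detectable difference between the genotypes. In 4-OHT-treated *Trex1* FL/FL cells it stood at 154 and 180 CPM on day 2, 249 and 274 CPM on day 3 and 143 and 169 CPM on day 4. In 4-OHT-treated *Trex1* WT/FL cells the values were 153 and 175 CPM, 242 and 295 CPM, and 121 and 178 CPM. The groups overlapped on all 3 days. The 95% intervals of the log2 fold change ran from -0.39 to 0.44 on day 2, from -0.45 to 0.37 on day 3 and from -0.35 to 0.47 on day 4, so that differences up to these bounds remained possible. *Fcgr2b* also had the widest spread of the members: the libraries of a group differed by up to 1.51-fold. This spread had 1 direction, with the library listed second the higher one in 16 of 16 groups. A block on the runs of title numbers within a genotype, described below, was added after seeing the data. With it the log2 fold changes were 0.02 (SE 0.0886), -0.03 (SE 0.0877) and 0.08 (SE 0.0889) on days 2, 3 and 4, and none was called. When its counts were added to those of *Fcgr3*, with which it shares sequence, the summed gene passed the test on no day (log2 fold change -0.16, -0.31 and -0.20 on days 2, 3 and 4; adjusted p = 0.503, 0.0868 and 0.242).

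*Fcer1g*, whose product carries the ITAM for *Fcgr1*, *Fcgr3* and *Fcgr4*, was the most abundant of the members per transcript length. On day 4 it stood at 568 and 532 CPM in *Trex1* FL/FL cells after 4-OHT and at 413 and 418 CPM in the 4-OHT-treated controls. On day 3 the values were 583 and 565 CPM against 439 and 468 CPM, and on day 2 they were 441 and 433 CPM against 356 and 392 CPM. The genotypes did not overlap on these days. The log2 fold changes were 0.22 (adjusted p = 0.0747), 0.34 (adjusted p = 0.00332) and 0.40 (adjusted p = 0.000336) on days 2, 3 and 4. The call on day 3 was lost without any 1 of 3 of its 4 libraries (both FL/FL libraries and the first WT/FL library, adjusted p = 0.0147 to 0.0594), and under library totals (0.30, adjusted p = 0.0107). The call on day 4 was lost without the first FL/FL library (0.35, adjusted p = 0.011). On day 4 untreated *Trex1* FL/FL cells also had higher values than untreated WT/FL cells, at 455 and 503 CPM against 372 and 419 CPM (log2 fold change 0.28, adjusted p = 0.0713).

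*Fcgrt*, the heavy chain of FcRn, was lower in 4-OHT-treated *Trex1* FL/FL cells than in the 4-OHT-treated controls on days 2, 3 and 4. On day 3 it stood at 135 and 123 CPM in *Trex1* FL/FL cells after 4-OHT and at 261 and 228 CPM in 4-OHT-treated *Trex1* WT/FL cells. On day 2 the values were 55.1 and 55.0 CPM against 83.5 and 73.6 CPM, and on day 4 they were 168 and 154 CPM against 223 and 237 CPM. The groups did not overlap on any of the 3 days. The log2 fold changes were -0.51 (SE 0.0879, adjusted p = 0.000135), -0.93 (SE 0.0857, adjusted p = 1.92e-08) and -0.51 (SE 0.0852, adjusted p = 3.48e-05). The light chain of the same receptor, β2-microglobulin (*B2m*), moved in the opposite direction with log2 fold changes of 0.32 (adjusted p = 9.48e-05), 0.42 (adjusted p = 2.04e-06) and 0.65 (adjusted p = 3.35e-10) on days 2, 3 and 4.

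**Figure D2:**
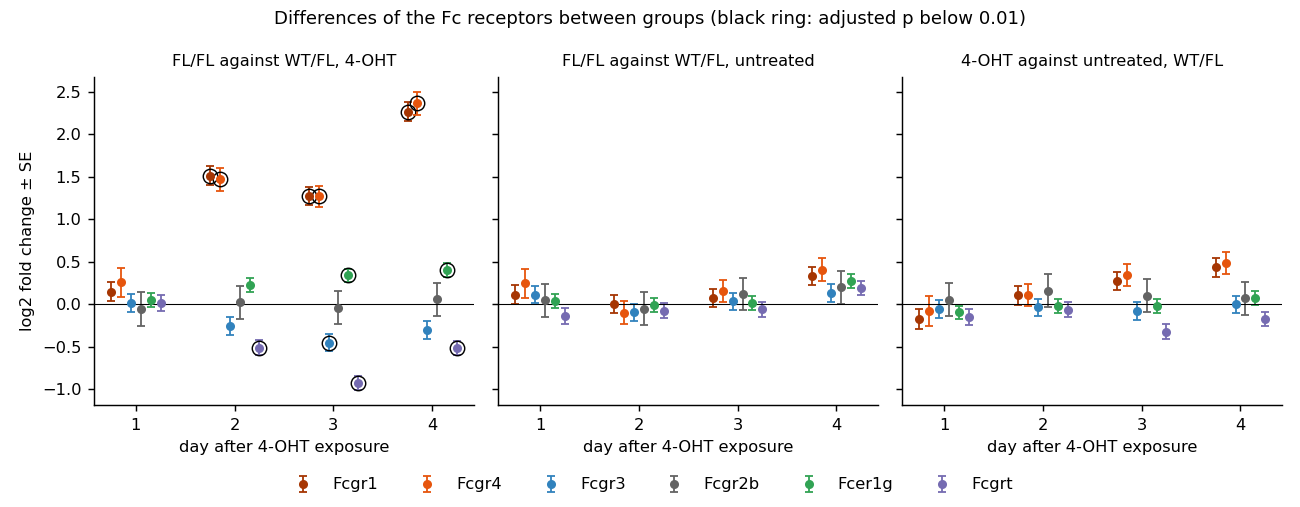
Log2 fold change with its standard error (edgeR) of each Fc receptor gene by day, for *Trex1* FL/FL against WT/FL cells after 4-OHT (left), for the untreated genotypes (middle) and for 4-OHT against untreated *Trex1* WT/FL cells (right). Black rings mark an adjusted p below 0.01 and occur in the left panel alone, where *Fcgr1* and *Fcgr4* reach 2.27 and 2.36 on day 4 and *Fcgrt* reaches -0.93 on day 3.

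The control comparisons gave the background of these differences. Between untreated *Trex1* FL/FL and WT/FL cells, 0 of 24 tests (6 members on 4 days) passed, beside 0% of all genes on days 1 to 3 and 0.0655% on day 4. DESeq2 called 0. An unadjusted edgeR p below 0.05 occurred in 4 of the 24, all on day 4. These were *Fcgr1*, *Fcgr4*, *Fcer1g* and *Fcgrt*, each higher in the FL/FL cells. The largest of these values were on day 4, 0.41 for *Fcgr4* (adjusted p = 0.119) and 0.34 for *Fcgr1* (adjusted p = 0.112). Between *Trex1* WT/FL cells with and without 4-OHT, 0 of 24 tests passed in edgeR, beside 0.00655%, 0.0918%, 0.341% and 0.216% of all genes on days 1 to 4, 5 of the 24 had an unadjusted p below 0.05, and DESeq2 called 1. On day 4 *Fcgr4* was 0.49 (adjusted p = 0.172) and *Fcgr1* 0.43 (adjusted p = 0.101) higher on the log2 scale after 4-OHT in these control cells. On day 3 *Fcgrt* was at -0.32 (adjusted p = 0.107).

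Against their own untreated cells, 4-OHT-treated *Trex1* FL/FL cells gave 12 calls in 24 tests, 7 of them higher and 5 lower, beside 0.0131%, 11.1%, 15.7% and 21.4% of all genes called on days 1 to 4. *Fcgr1* was higher by 1.62, 1.47 and 2.36 on the log2 scale on days 2, 3 and 4, and *Fcgr4* by 1.67, 1.46 and 2.44. *Fcgrt* was at -0.50, -1.19 and -0.88. *Fcgr3* was lower on days 3 and 4, at -0.56 and -0.43, and *Fcer1g* was higher on day 3 alone, at 0.30. This comparison shares its 4-OHT-treated libraries with the comparison of the genotypes, so that the values of both are not independent of each other.

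The interaction of genotype and 4-OHT, which takes both controls into account, was called in 8 of 24 tests, 6 of them higher and 2 lower, beside 0.00655%, 4.04%, 4.65% and 10.4% of all genes on days 1 to 4. These were *Fcgr1* (1.51, 1.20 and 1.93) and *Fcgr4* (1.57, 1.11 and 1.96) on days 2, 3 and 4, and *Fcgrt* on days 3 and 4 (-0.87 and -0.71). The interaction was not called for *Fcgr3* on day 3 (-0.48, adjusted p = 0.0396) or day 4 (-0.43, adjusted p = 0.0459). For *Fcer1g* it was 0.32 (adjusted p = 0.0875) on day 3 and 0.13 (adjusted p = 0.552) on day 4. For *Fcgrt* on day 2 it was -0.44 (adjusted p = 0.0295). In these cases the main fit did not show the difference between the treated genotypes to exceed the difference between the untreated ones. With the block on the runs of title numbers, the interaction was called for *Fcgr3* on days 3 and 4. It was then -0.49 (adjusted p = 0.000225) and -0.43 (adjusted p = 0.0004). The interactions of *Fcer1g* on days 3 and 4 and of *Fcgrt* on day 2 stayed uncalled (adjusted p = 0.0104, 0.357 and 0.0415).

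The balance of activating to inhibitory receptors was followed as the ratio of each activating receptor to *Fcgr2b* within a library, which does not depend on how libraries are scaled to each other. On day 4 the count ratio of *Fcgr1* to *Fcgr2b* was 7.80 and 6.75 in *Trex1* FL/FL cells after 4-OHT and 1.83 and 1.39 in 4-OHT-treated *Trex1* WT/FL cells. The ratio of *Fcgr4* to *Fcgr2b* was 1.67 and 1.38 against 0.320 and 0.300. The ratio of *Fcgr3* to *Fcgr2b* was 2.51 and 2.24 against 3.43 and 2.77. These ratios compare read counts and carry the lengths of both transcripts, hence only their differences between groups were compared.

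Over days 2 to 4, the log2 ratio to *Fcgr2b* was higher in 4-OHT-treated *Trex1* FL/FL than in WT/FL cells by 1.66 (3.17-fold) for *Fcgr1* and by 1.68 (3.21-fold) for *Fcgr4*. For *Fcgr3* the difference was -0.36 (0.781-fold). Each of the 3 gave a two-sided exact permutation p of 0.00926 over 12 libraries with labels exchanged within days, the smallest that 216 arrangements allow, and an adjusted p of 0.0278 over 9 tests. The FL/FL libraries were the higher ones for *Fcgr1* and *Fcgr4*, and the lower ones for *Fcgr3*, on all 3 days without overlap. Between the untreated genotypes the differences were 0.03, 0.05 and -0.08 for *Fcgr1*, *Fcgr4* and *Fcgr3* (exact permutation p = 0.796, 0.583 and 0.296). Between *Trex1* WT/FL cells with and without 4-OHT they were 0.16, 0.20 and -0.15 (exact permutation p = 0.37, 0.0926 and 0.12). By these values the activating receptors did not shift together relative to *Fcgr2b*. The adjusted p of 0.0278 was above the limit of 0.01 used for calls. Exchanging labels within days also treats libraries of different days as independent, which the labels do not settle.

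**Figure D3:**
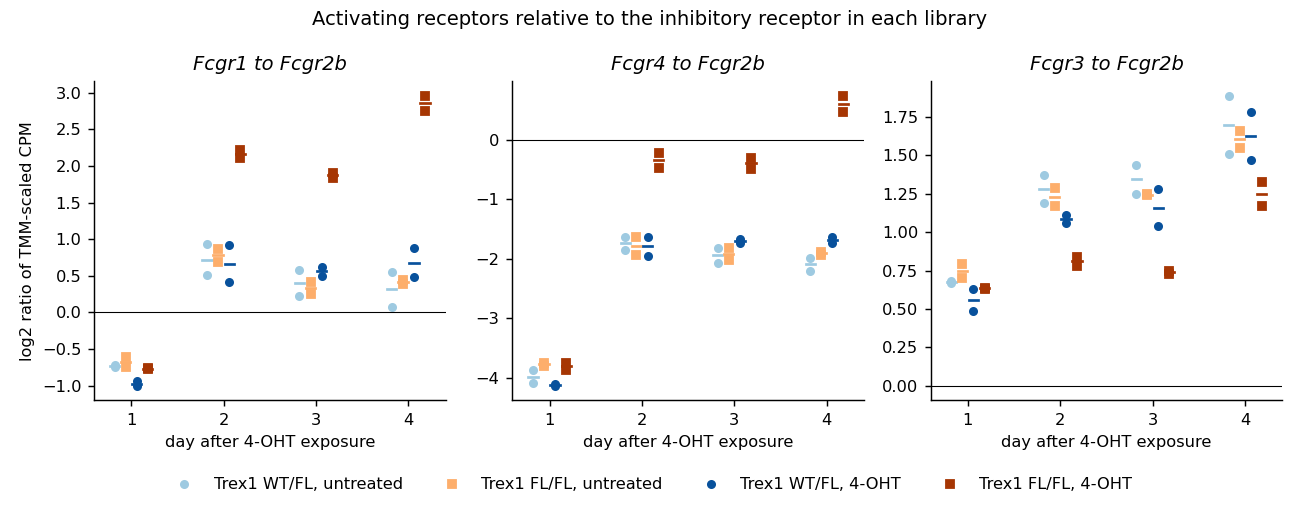
Log2 ratio of the TMM-scaled CPM of *Fcgr1*, *Fcgr4* and *Fcgr3* to *Fcgr2b* by day, with a point for each library, a bar at each group mean and the line at 0 for equal CPM. On days 2 to 4 the 4-OHT-treated *Trex1* FL/FL libraries lie above the others for *Fcgr1* and *Fcgr4* and below them for *Fcgr3*, with mean differences from the 4-OHT-treated controls of 1.66, 1.68 and -0.36.

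All members changed with time in culture, whatever the genotype and treatment. From day 1 to day 4 all 6 rose in each of the 4 arms, beside 27.5% (untreated WT/FL), 27.7% (WT/FL with 4-OHT), 27.7% (untreated FL/FL) and 28.3% (FL/FL with 4-OHT) of all genes called higher. In untreated *Trex1* WT/FL cells the rise was 3.41 on the log2 scale for *Fcgrt*, 2.54 for *Fcgr4*, 1.71 for *Fcgr1*, 1.68 for *Fcgr3*, 0.68 for *Fcgr2b* and 0.58 for *Fcer1g* (adjusted p = 3.12e-20 to 0.00624). *Fcgrt* went from 22.8 and 26.0 CPM on day 1 to 312 and 299 CPM on day 3 in these cells. The summed macrophage markers other than *Fcgr1* went from 15398 to 17447 CPM on day 1 to 26022 to 48531 CPM on days 2 to 4, and their part in the time course was not tested.

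The step from day 3 to day 4 was called for different members in the 4 arms. In untreated *Trex1* WT/FL cells *Fcgr1* (-0.91), *Fcgr4* (-0.98), *Fcgr3* (-0.47) and *Fcgr2b* (-0.81) fell, beside 6.39% of all genes called lower. In 4-OHT-treated *Trex1* WT/FL cells the same 4 genes fell, by values of -0.75, -0.84, -0.39 and -0.85, beside 5.93% of all genes. In untreated *Trex1* FL/FL cells *Fcgr1* (-0.65) and *Fcgr4* (-0.73) fell, beside 7.18% of all genes, and *Fcgr3* (-0.37, adjusted p = 0.0111) and *Fcgr2b* (-0.73, adjusted p = 0.0114) narrowly missed the threshold. In 4-OHT-treated *Trex1* FL/FL cells edgeR called 0 members lower (*Fcgr3* and *Fcgr2b* had an unadjusted p below 0.05), beside 5.7% of all genes, and *Fcgrt* rose by 0.32 (adjusted p = 0.00946), beside 3.64% of all genes called higher. There *Fcgr1* was at 0.24 (adjusted p = 0.154) and *Fcgr4* at 0.25 (adjusted p = 0.202). *Fcgr2b* was at -0.74 in the same cells (adjusted p = 0.0139), a value near those of the other arms. With the block on the runs of title numbers, *Fcgr3* and *Fcgr2b* were called lower in all 4 arms. In 4-OHT-treated *Trex1* FL/FL cells they were then at -0.24 (adjusted p = 0.00481) and -0.75 (adjusted p = 3.8e-06). The rise of *Fcgrt* in these cells was not called with the block (0.33, adjusted p = 0.0139).

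The change of the genotype difference between days was tested directly. From day 1 to day 2 it was called for *Fcgr1* (1.37, adjusted p = 1.18e-05) and *Fcgr4* (1.21, adjusted p = 0.00119), beside 3.02% of all genes. From day 2 to day 3 it was called for 0 members in edgeR (1 at an unadjusted p below 0.05), beside 0.905% of all genes. From day 3 to day 4 it was called again for *Fcgr1* (0.99, adjusted p = 0.000202) and *Fcgr4* (1.09, adjusted p = 0.000484), beside 3.7% of all genes. It was not called for *Fcgr3* (0.15, adjusted p = 0.669) or *Fcgr2b* (0.10, adjusted p = 0.916). For *Fcgrt* the difference narrowed by 0.41 from day 3 to day 4, which did not pass the test (adjusted p = 0.0354).

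Ordered over the 16 groups, *Fcgr1* and *Fcgr4* were lowest in 4-OHT-treated *Trex1* WT/FL cells on day 1 and highest in 4-OHT-treated *Trex1* FL/FL cells on day 4, with the FL/FL cells of days 2, 3 and 4 on top in that order. These 3 groups did not overlap with each other or with the group below them. For *Fcgr1* 7 and for *Fcgr4* 8 of the 15 neighbouring pairs of groups were free of overlap. *Fcgrt* had 7 such pairs and was highest in untreated *Trex1* WT/FL cells on day 3. *Fcgr3* had 4 and *Fcgr2b* 2, both with the highest level in untreated *Trex1* FL/FL cells on day 3. *Fcer1g* had 3 and was highest in 4-OHT-treated *Trex1* FL/FL cells on day 3. The share of such pairs over all genes was not computed, and the groups were ordered by these same means. The counts are therefore not read as a trait of the members.

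Levels of the members were set against each other per kilobase (kb), of the canonical transcript unless stated otherwise. On day 4 in 4-OHT-treated *Trex1* WT/FL cells, *Fcer1g* stood at 433 CPM per kb, *Fcgr3* at 294, *Fcgr1* at 88.8, *Fcgrt* at 78.5, *Fcgr2b* at 43.9 and *Fcgr4* at 36.0. In 4-OHT-treated *Trex1* FL/FL cells the order was *Fcer1g* (573), *Fcgr1* (427), *Fcgr3* (239), *Fcgr4* (185), *Fcgrt* (55.0) and *Fcgr2b* (45.8). By either length *Fcgr3* stood above *Fcgr1* in the WT/FL cells and below it in the FL/FL cells (147 against 67.3 and 119 against 323 CPM per kb of all annotated exons). The place of *Fcgr4* depends on the length used: per kb of all annotated exons it was already above *Fcgr2b* in the WT/FL cells (36.0 against 25.5) and also above *Fcgr3* in the FL/FL cells (185 against 119). Which transcripts the cells make is not shown by gene counts.

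Of the 14 other Fc and immunoglobulin receptor genes listed, 5 passed the filter on low counts. *Trim21*, which encodes a cytosolic Fc receptor and ubiquitin ligase, was higher in 4-OHT-treated *Trex1* FL/FL cells by 0.81, 0.55 and 1.11 on the log2 scale on days 2, 3 and 4 (adjusted p = 2.99e-09, 1.42e-06 and 1.4e-12). *Fcrl1*, an Fc receptor-like gene, was higher on day 3 (0.72, adjusted p = 0.00223) and at 0.10 on day 4 (adjusted p = 0.725). *Fcrl5*, *Fcrla* and *Fcrlb* passed on no day. The IgE receptor subunit genes *Fcer1a* and *Fcer2a*, the IgM and IgA receptor genes *Fcmr* and *Fcamr* and the gene *Fcrl6* were at 0 in all group means, and *Ms4a2*, *Pigr* and *Fcgbp* did not exceed 0.0684 CPM in any group mean. *Fcrls* had no entry under this symbol in the annotation and was not analysed here.

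Downstream of the receptors, the 24 listed genes of ITAM signalling went in both directions. On day 4 the 4-OHT-treated *Trex1* FL/FL cells exceeded the controls in 8 of them and stayed below in 4, beside 9.84% and 11.7% of all genes called, with a median log2 fold change of 0.062 beside -0.037 over all genes tested. This median is smaller than the shift of all genes under library totals (-0.096), so that its sign depends on the scaling. The Src family kinase *Lyn* (0.67, adjusted p = 1.73e-09), which phosphorylates the ITAM, and the adaptor genes *Lat2* (0.54, adjusted p = 1.52e-06) and *Sh3bp2* (0.53, adjusted p = 9.2e-09) were higher. The Src family kinase *Fgr* (-0.41, adjusted p = 0.000585), the PI3-kinase subunit *Pik3cg* (-0.45, adjusted p = 1.02e-06) and the ubiquitin ligase *Cbl* (-0.41, adjusted p = 0.00025) were lower. *Syk*, the kinase that binds the phosphorylated ITAM, was at -0.12 (adjusted p = 0.0484) after -0.19 (adjusted p = 0.00313) on day 3. On day 2 the counts were 3 higher and 2 lower, beside 5.69% and 2.48% of all genes, and on day 3 they were 4 and 3, beside 6.69% and 5.42%.

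Of 10 genes listed as inhibitory adaptors and enzymes, 5 were higher and 0 lower on day 4, beside 9.84% and 11.7% of all genes, with a median of 0.273 beside -0.037 over all genes tested. They were *Cblb* (0.59, adjusted p = 1.78e-05), the phosphatases *Ptprc* (0.44, adjusted p = 6.34e-07) and *Ptpn6* (0.39, adjusted p = 1.38e-06), *Dok1* (0.44, adjusted p = 0.00584) and the kinase *Csk* (0.39, adjusted p = 2.38e-05). *Inpp5d*, which encodes the phosphatase SHIP1 that acts with FcγRIIB, was at -0.15 (adjusted p = 0.0831). On day 2, beside the shares of all genes given above, the counts were 3 higher and 0 lower, and on day 3 they were 2 higher and 1 lower (*Dok2*, -0.33, adjusted p = 0.00642). All these counts depend on how genes were sorted into lists: *Cbl* was placed with ITAM signalling, and *Cblb* and *Ptprc* here.

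Other receptors that use ITAM adaptors and other phagocytic receptors were listed for comparison, and no test between the lists was run. Of 13 receptor and adaptor genes that pair with or encode ITAM adaptors, 4 were higher and 1 lower on day 4, beside 9.84% and 11.7% of all genes, with a median of 0.106 beside -0.037. *Sirpb1a* (1.89, adjusted p = 1.94e-08), a member of a family of close copies whose reads may be split, *Cd300ld* (0.56, adjusted p = 6.05e-06), *Trem2* (0.43, adjusted p = 2.2e-06) and the adaptor gene *Tyrobp* (0.28, adjusted p = 0.00355) were higher, and *Clec4n* (-0.81, adjusted p = 0.000931) was lower. Of 6 other phagocytic receptor genes, 5 were lower and 1 higher on day 4, beside 11.7% and 9.84% of all genes, with a median of -0.638 beside -0.037. The scavenger receptor genes *Marco* (-2.57, adjusted p = 2.29e-05) and *Cd36* (-0.92, adjusted p = 2.76e-08) and the integrin subunit genes *Itgax* (-2.29, adjusted p = 1.02e-07), *Itgam* (-0.35, adjusted p = 0.000149) and *Itgb2* (-0.22, adjusted p = 0.00342) were lower, and *Msr1* (0.47, adjusted p = 2.46e-06) was higher.

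**Figure D4:**
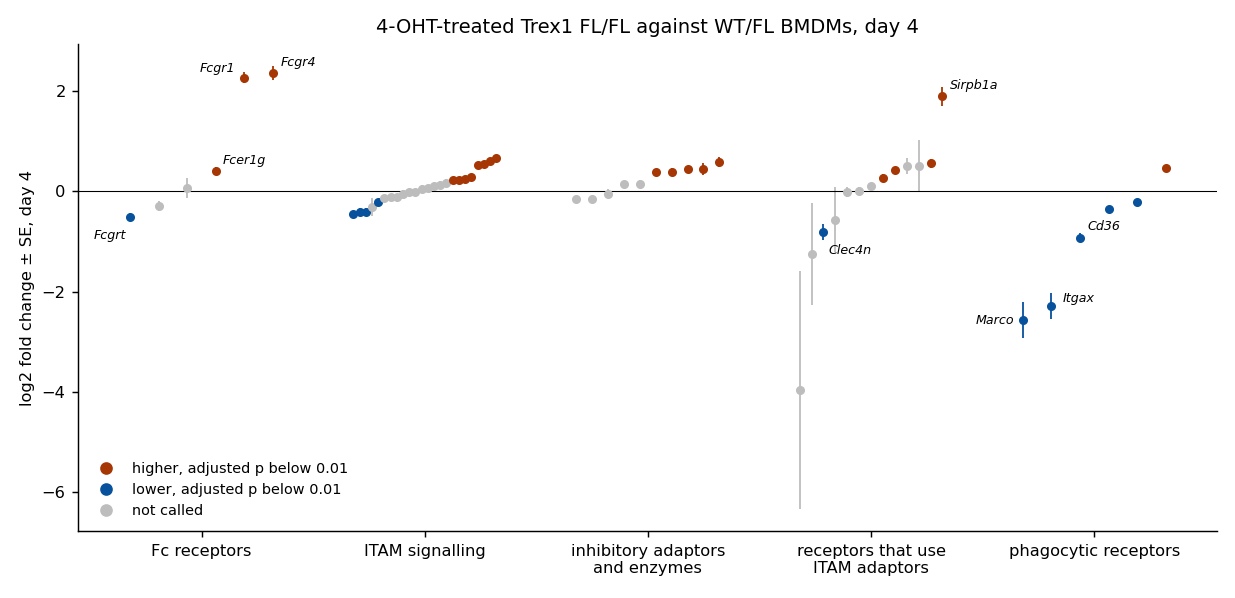
Log2 fold change with its standard error (edgeR) of 4-OHT-treated *Trex1* FL/FL against WT/FL cells on day 4, with a point for each tested gene of 5 lists and colours for the call at an adjusted p below 0.01. *Fcgr1* (2.27) and *Fcgr4* (2.36) are the highest points of all lists shown, and *Marco* (-2.57) and *Itgax* (-2.29) the lowest called ones.

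The genes whose log2 levels followed a member most closely over the 16 group means were named by the highest Pearson's r, as a description with no p. For *Fcgr1* these were *Vipas39* (r = 0.9985), *Slfn2* (0.9971) and *Themis2* (0.9966), and for *Fcgr4* they were *Themis2* (0.9963), *Tap1* (0.9959) and *Ifitm3* (0.9952). For *Fcgr3* they were *Txndc16* (0.9982), *Hfe* (0.9955) and *Serinc3* (0.9943), and for *Fcgrt* they were *Gna12* (0.9960), *Ninj1* (0.9959) and *Tprg1l* (0.9957). *Fcer1g* was closest to *Slc50a1* (0.9885), *Grn* (0.9870) and *Gpr108* (0.9858). *Fcgr2b* was closest to *Txnip* (0.9792), *Akna* (0.9712) and *Mrpl24* (0.9691), with the lowest values of the 6 members. Among the members, *Fcgr3* and *Fcgrt* had an r of 0.968 and *Fcgr3* and *Fcgr2b* one of 0.904, whereas *Fcgr1* and *Fcgrt* had 0.654. The 16 groups share the rise from day 1, which raises r between any genes that rose.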

How the data were processed

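RNA of mouse BMDMs was sequenced in bulk in 32 libraries, and 1 table of estimated counts per gene was deposited for all of them. Per the labels and the study's methods, the authors split the reads by library with JE, inspected their quality in FastQC 11.9, let Salmon estimate transcript counts for GRCm39 and added these up by gene in tximport, without pooling libraries. Salmon shares reads among similar transcripts by estimation, so counts of genes with common sequence depend on each other. The release of the annotation is not given in the sources used here. The deposited estimated counts were whole numbers and were used as such. Columns were assigned to groups by the sample descriptions in the labels. Symbols came from GENCODE vM39, which matched 51048 of 54281 identifiers, and the others held 0.32% of counts.

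Libraries held 35120505 to 63760884 counts, and the lowest count of a member in any library was 215, for *Fcgr4*. All 32 libraries entered a single edgeR 4.0.16 fit (R 4.3.3; quasi-likelihood, robust) with 16 group means, TMM factors, the filterByExpr filter at a minimum count of 10 and Benjamini-Hochberg adjustment over 15257 genes in each contrast. The common biological coefficient of variation was 0.0912 with 16 residual degrees of freedom. A call required an adjusted p below 0.01. The study's additional limit, an absolute log2 fold change above 1.5, was counted separately. Log2 ratios to *Fcgr2b* used a prior count of 2 and two-sided exact permutation tests within days. Alternatives were RLE, upper-quartile and library-total scaling, DESeq2 1.42.0 (the authors used DESeq2 1.32), other filters and thresholds, fits of the contrast's libraries alone, *Fcgr2b* and *Fcgr3* summed, each library left out and, added after seeing the data, a block on the runs of title numbers within a genotype. The fits were tested on simulated data. All 6 members were named, for each of them the 3 genes with the highest Pearson's r over group means, and from each pathway list the called genes with the 4 largest absolute log2 fold changes. Further genes of these lists, such as *Syk*, *Inpp5d* and the remaining called ones, were chosen for naming once their values had been seen. The members and lists were chosen with earlier results of these data known. Sequences were read from the GRCm39 genome. Single values of some listed genes are not reported here.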

Additional observations from a re-analysis of the deposited data

Results flagged for a closer look

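For 3 members the effect of 4-OHT differed between the genotypes by a test of the difference itself, the interaction term of the main edgeR fit. For *Fcgr1* the log2 fold change in *Trex1* FL/FL cells exceeded that in WT/FL cells by 1.51 on day 2 (adjusted p = 1.53e-06), 1.20 on day 3 (adjusted p = 3.3e-05) and 1.93 on day 4 (adjusted p = 1.16e-08). For *Fcgr4* the interaction was 1.57 (adjusted p = 1.21e-05), 1.11 (adjusted p = 0.000456) and 1.96 (adjusted p = 2.08e-07) on these days. For *Fcgrt* it was -0.87 on day 3 (adjusted p = 3.17e-05) and -0.71 on day 4 (adjusted p = 0.000101).

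For *Fcgr1* and *Fcgr4* the difference between the 4-OHT-treated genotypes also differed between consecutive days. From day 1 to day 2 it grew by 1.37 for *Fcgr1* (adjusted p = 1.18e-05) and by 1.21 for *Fcgr4* (adjusted p = 0.00119). From day 3 to day 4 it grew by 0.99 for *Fcgr1* (adjusted p = 0.000202) and by 1.09 for *Fcgr4* (adjusted p = 0.000484), while the level in the 4-OHT-treated controls fell from 372 and 418 to 222 and 248 CPM for *Fcgr1*. All these contrasts share the libraries of 4-OHT-treated *Trex1* FL/FL cells and are not independent of each other.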

How the results depend on the processing

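No called member changed direction under any alternative run. With the study's minimum of an absolute log2 fold change above 1.5, the calls between the 4-OHT-treated genotypes went from 3 to 1 on day 2, from 5 to 0 on day 3 and from 4 to 2 on day 4. Under the same limit, calls went from 12 to 4 for 4-OHT in *Trex1* FL/FL cells, from 8 to 4 for the interaction, from 4 to 0 for the change between days and from 80 to 29 for days within an arm. With every gene of at least 1 count kept, 3 calls appeared between the untreated genotypes and 5 for 4-OHT in *Trex1* WT/FL cells, where edgeR otherwise made 0 and DESeq2 made 1, and the change between days had 7. That filter also called *Fcgr3* on day 2 (-0.26, adjusted p = 0.0031) and day 4 (-0.30, adjusted p = 0.000146). Shares of all genes under the study's limit are given above only for the 4-OHT-treated genotypes. With the looser filter, and with 1 library left out (below), they were not counted. These changes in number are therefore not read as particular to the members. The cause was not tested.

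Leaving out 1 library at a time gave 0 members on day 1, 3 on day 2, 3 to 4 on day 3 and 3 to 4 on day 4. The day 3 count was 3 without the first WT/FL or the first FL/FL library. Over the other comparisons it gave 0 calls between untreated genotypes, 0 in *Trex1* WT/FL cells, 10 to 12 in FL/FL cells, 8 to 9 interactions, 3 to 5 changes between days and 74 to 80 calls for days. The ratio differences ranged from 1.58 to 1.75 for *Fcgr1*, from 1.63 to 1.73 for *Fcgr4* and from -0.41 to -0.31 for *Fcgr3*. Scaling by library totals moved the median of all genes by -0.107 for 4-OHT against untreated *Trex1* FL/FL cells on day 2, where the share of higher calls went from 67.6% to 36.4%, and by less in the other contrasts of genotype and 4-OHT.

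The labels give no replicate numbers, animals or batches. In each genotype the title numbers form stretches of consecutive numbers, each with a single treatment, and the genotypes hold separate ranges. For a block, the numbers of a genotype were cut at the middle into a lower and a higher run. Each of these 2 runs holds every treatment and day once. A replicate block on these runs within each genotype was added after seeing the data. Over all genes, the differences between the runs correlated weakly between groups of a genotype. The median r was 0.071 (WT/FL) and 0.063 (FL/FL), with 5 of 28 pairs of groups above 0.1 in each. Between groups of different genotypes it was 0.029, with 0 of 64 pairs above 0.1. These values do not settle whether a run pairs its libraries, and the main fit left them unpaired. Genes called between the 4-OHT-treated genotypes went from 1246 to 1547 on day 2 with the block. They went from 1848 to 2330 on day 3 and from 3284 to 3786 on day 4. Between the untreated genotypes they went from 10 to 113 on day 4. With the block, members called after 4-OHT went from 3 to 5 on day 2, remained 5 in number on day 3 and went from 4 to 5 on day 4. *Fcgr3* was then called on days 2 and 4 (-0.25 and -0.29, adjusted p = 0.00373 and 0.000329) and *Fcer1g* on day 2 (0.23, adjusted p = 0.00751), and 1 call appeared between the untreated genotypes (*Fcer1g* on day 4, 0.28, adjusted p = 0.00998). If a run stands for an animal, a genotype has 2 animals, and p-values between genotypes are then too small with or without the block. With 2 libraries a group, an exact permutation test of 2 against 2 alone cannot go below p = 0.33, so that the calls rest on the spread shared by 16 groups. When 1 library was left out, the lone library of its group was assumed to vary like the others. *Fcgr3* and *Fcgr2b* share sequence, and small differences between them depend on how the reads were assigned.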

Other observations

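Of the 2 libraries of each group, the one listed second had the higher *Fcgr2b* level in 16 of 16 groups, by a median of 0.19 on the log2 scale and up to 0.60. The second library was also the higher one in 15 groups for *Fcgr3*, 12 for *Fcgr1*, 12 for *Fcer1g*, 9 for *Fcgr4* and 6 for *Fcgrt*. The order is that of the deposited list and of the running numbers in the titles, and the labels do not say whether it stands for a culture, an animal or a day.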
